A study of Rattus norvegicus with 40 samples.

Results

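The genes described here encode the classical MHC class II molecules of the rat and their chaperone, the invariant chain, in carotid arteries after balloon injury. All probe sets of the array whose platform annotation gives exactly 1 of the symbols RT1-Ba, RT1-Bb, RT1-Da, RT1-Db1 and Cd74 were taken. This gave 16 probe sets for 5 genes, of 8740 probe sets on the array without controls. RT1-Ba had 3, RT1-Bb 5, RT1-Da 2, RT1-Db1 2 and Cd74 4. Of the 16, 14 passed the filter on dim probe sets and were among the 5827 tested. M15358cds_at and M36151cds_i_at of RT1-Bb were too dim, with deposited intensities of at most 139 and 18.8.

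MHC class II molecules are heterodimers of an alpha and a beta chain that present peptides from the endocytic pathway to CD4+ T cells. In the rat, RT1-Ba and RT1-Bb encode the alpha and beta chain of RT1-B, the counterpart of human HLA-DQ, and RT1-Da and RT1-Db1 those of RT1-D, the counterpart of HLA-DR. Cd74, the invariant chain, holds newly made class II dimers together, blocks their groove and guides them to the endosome. Macrophages, dendritic cells and B cells express class II constitutively, and interferon gamma induces it in vascular smooth muscle and endothelium.

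RNA came from common carotid arteries of male Wistar-Kyoto rats of 3 months, and each of the 40 Affymetrix rat genome arrays held a pool of 3 vessels from 3 rats. In ballooned rats the left artery was injured with a catheter, and Pluronic gel, either plain or with recombinant tissue-type plasminogen activator (tPA, 20 nmol/kg), was applied to its outer side. The injured left and the uninjured right (contralateral) artery were taken 1 or 4 days later, which gave 8 groups of 3 arrays each: injured gel, injured tPA, contralateral gel and contralateral tPA on each day. The other arrays held left arteries of sham-operated rats, 4 on day 1 and 6 on day 4, and of intact rats, 6. The labels give no gel for the sham and intact rats, so those groups differ from the ballooned ones by the gel as well as by the balloon. The labels do not say which pooled right arteries came from the same rats as which left ones. All p-values measure the spread between these pools.

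Several of these genes passed in the same direction in the comparisons below, so their promoters are shown for the elements that class II genes are known to share: an X box, bound by the RFX complex, and a Y box, bound by NF-Y, which recruit the coactivator CIITA. The sequences are those of RefSeq (build GRCr8), from 250 bases before to 50 bases after the start that the promoter table uses for each gene, read along the gene. That start is the 5' end of the annotated gene for RT1-Ba and RT1-Bb, but lies 22 bases inside the annotated gene for RT1-Da, 20 for RT1-Db1 and 135 for Cd74. The windows are chr20:4515165-4515464 (plus strand) for RT1-Da, chr20:4560113-4560412 (minus strand) for RT1-Db1, chr20:4576807-4577106 (plus strand) for RT1-Ba, chr20:4604069-4604368 (minus strand) for RT1-Bb and chr18:56526956-56527255 (plus strand) for Cd74. Capitals mark TAGCAAC, an X box core, and CTGATTGG, a Y box, spellings chosen after looking at these promoters and searched on both strands.
RT1-Da: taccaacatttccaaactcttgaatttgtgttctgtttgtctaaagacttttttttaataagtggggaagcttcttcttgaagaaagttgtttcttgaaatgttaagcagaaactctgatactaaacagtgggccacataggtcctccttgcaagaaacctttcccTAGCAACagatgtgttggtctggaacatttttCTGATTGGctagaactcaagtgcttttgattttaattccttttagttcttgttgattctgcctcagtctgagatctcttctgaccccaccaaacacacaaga
RT1-Db1: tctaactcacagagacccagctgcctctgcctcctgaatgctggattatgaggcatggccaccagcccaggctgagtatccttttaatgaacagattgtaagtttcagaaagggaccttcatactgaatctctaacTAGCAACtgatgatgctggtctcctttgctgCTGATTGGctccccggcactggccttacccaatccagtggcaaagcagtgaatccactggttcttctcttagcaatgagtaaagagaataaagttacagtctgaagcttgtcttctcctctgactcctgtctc
RT1-Ba: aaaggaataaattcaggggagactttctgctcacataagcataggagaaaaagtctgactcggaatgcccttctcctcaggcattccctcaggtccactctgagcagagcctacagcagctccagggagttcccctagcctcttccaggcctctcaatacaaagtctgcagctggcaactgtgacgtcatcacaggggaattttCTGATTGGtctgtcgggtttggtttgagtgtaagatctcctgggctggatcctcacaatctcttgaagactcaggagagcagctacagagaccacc
RT1-Bb: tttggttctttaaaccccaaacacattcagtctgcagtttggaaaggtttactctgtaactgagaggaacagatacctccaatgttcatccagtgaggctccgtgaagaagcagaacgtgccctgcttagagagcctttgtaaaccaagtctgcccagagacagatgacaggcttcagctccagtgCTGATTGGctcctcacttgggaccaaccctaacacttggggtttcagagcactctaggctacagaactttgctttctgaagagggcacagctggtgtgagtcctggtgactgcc
Cd74: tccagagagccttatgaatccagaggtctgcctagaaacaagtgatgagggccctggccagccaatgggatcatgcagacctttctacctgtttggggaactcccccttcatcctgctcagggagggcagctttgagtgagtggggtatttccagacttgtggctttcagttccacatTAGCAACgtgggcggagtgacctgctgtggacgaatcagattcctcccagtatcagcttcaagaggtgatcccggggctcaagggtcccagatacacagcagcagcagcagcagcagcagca
RT1-Da and RT1-Db1 held both elements, with 25 and 24 bases between them, and the X core began 84 and 114 bases before the table's start, which is 62 and 94 bases before the annotated 5' end. RT1-Ba and RT1-Bb held the Y box, 46 and 64 bases before the start, without the X core as spelled. Cd74 held the X core 72 bases before the table's start, which is 63 bases inside the annotated gene, without the Y box as spelled. Of 33469 rat promoters of this length, 3.58% held TAGCAAC, 3.5% held CTGATTGG and 0.0896% held both. The match of letters is a description of the sequence, and no binding was measured. The genes themselves lie at chr20:4515393-4520387 (RT1-Da), chr20:4550594-4560182 (RT1-Db1), chr20:4577057-4581650 (RT1-Ba), chr20:4598475-4604118 (RT1-Bb) and chr18:56527071-56536406 (Cd74), so that the class II genes form a cluster on chromosome 20 apart from the invariant chain.

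Some arrays stood apart before any class II value was considered. Over the probe sets other than these genes that differed between injured gel and sham arteries of the same day (181 on day 1, 1107 on day 4), each array's mean shift from sham in the direction of injury was computed on the log2 scale. On day 1 it was 2.36 to 2.5 on the injured gel arrays and 0.78 to 0.95 on the contralateral gel arrays, but 0.83 on injured tPA replicate 2 and 1.51 on contralateral tPA replicate 2. On day 4 it was 1.72 to 1.76 on injured gel and 0.72 to 0.88 on contralateral gel arrays, but 0.34 on injured tPA replicate 1 and 1.16 on contralateral tPA replicate 1. On both days the library labelled injured thus shifted less than the library labelled contralateral with the same number. Whether these libraries were exchanged between the arteries was not tested. If they were, injured and contralateral values of the tPA groups are mixed, so the tPA comparisons are given as labelled and without these 4 arrays. The 4 arrays were picked by the size of their injury shift. Calls gained by leaving them out follow partly from that choice and are no independent support. Sham day 1 replicates 1 and 2, sham day 1 replicates 3 and 4, and injured gel day 1 replicates 1 and 3 were the most alike of the 60 pairs within groups (SD of log2 differences 0.489, 0.532 and 0.45, against a median of 0.8375). Whether they share RNA is not stated, and results on day 1 are also given with each such pair averaged. Markers of smooth muscle, the tissue labelled, were present throughout: Acta2, smooth muscle actin, read 4835 to 13014.

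Class II levels were highest in the injured gel artery on day 4 and lowest in the contralateral gel artery on day 1. The former was the highest of the 11 groups for 11 of the 14 probe sets and the latter the lowest for 10. For RT1-Db1 (X53054_g_at), the beta chain of RT1-D, mean log2 intensity was 12.13 ± 0.08 (SD, n = 3) in injured gel arteries on day 4 and 11.15 ± 0.09 (n = 4) in sham arteries on day 1. It followed at 10.78 ± 1.43 in injured tPA day 4, 10.65 ± 0.2 in contralateral gel day 4, 10.26 ± 1.44 in contralateral tPA day 1, 9.74 ± 0.63 in injured tPA day 1 and 9.27 ± 1.69 in contralateral tPA day 4 (n = 3 each). The lower end held intact arteries at 8.89 ± 1.25 (n = 6), injured gel day 1 at 8.47 ± 1.32 (n = 3), sham day 4 at 8.15 ± 0.6 (n = 6) and contralateral gel day 1 at 7.22 ± 0.51 (n = 3). Of the 10 pairs of neighbours in this order, 9 overlapped in their arrays, and the exception was the step from injured gel day 4 to sham day 1.

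For Cd74, RT1-Da, RT1-Ba and RT1-Bb the same 2 groups were at the ends in the probe sets given here. Cd74 (X13044_g_at) ran from 12.11 ± 0.1 in injured gel day 4 through 11.11 ± 0.6 in sham day 1 to 9.14 ± 1.87 in intact, 8.64 ± 1.63 in sham day 4 and 6.69 ± 2.08 in contralateral gel day 1. RT1-Da (M15562_at), the alpha chain of RT1-D, ran from 12.15 ± 0.12 in injured gel day 4, next to 12.0 ± 0.19 in sham day 1, to 9.59 ± 1.04 in contralateral gel day 1. For Cd74 only the step below injured gel day 4 was free of overlap, and for RT1-Da all 10 steps overlapped. RT1-Ba (K02815_s_at), the alpha chain of RT1-B, stood at 11.72 ± 0.06 in injured gel day 4 and between 10.25 ± 1.66 and 8.46 ± 0.4 elsewhere. RT1-Bb (X56596_at), its beta chain, stood at 11.35 ± 0.24 in injured gel day 4, 9.64 ± 0.49 in contralateral gel day 4 and between 9.24 ± 0.62 and 7.36 ± 0.42 in the rest. In the probe sets M36151cds_s_at of RT1-Bb and M15562_g_at of RT1-Da, which stand for their genes by brightness, the ends differed: injured tPA day 4 (9.39 ± 0.77) and injured gel day 1 (7.87 ± 0.79) for the former, and injured tPA day 1 (12.33 ± 0.65) and injured tPA day 4 (9.37 ± 4.18) for the latter. In K02815_s_at and X56596_at, sham day 1 lay among the middle groups (9.71 ± 0.49 and 8.37 ± 0.5).

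**Figure D1:**
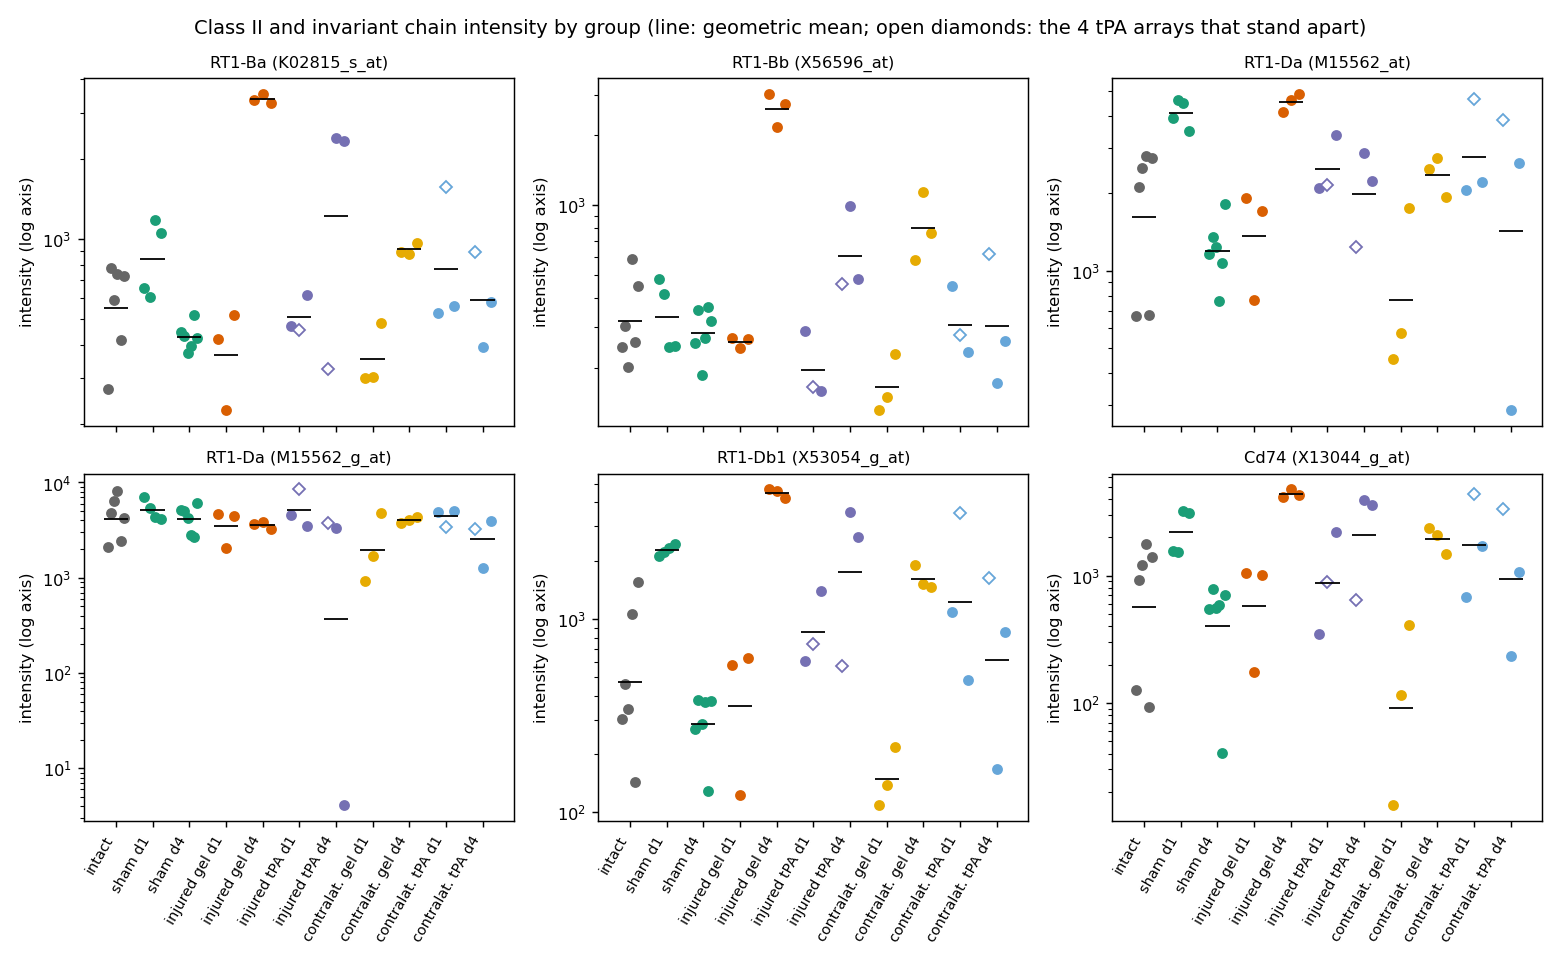
Deposited intensity (log axis) of 6 probe sets of the 5 genes on every array, by group, with the geometric mean of the deposited values as a line and the 4 tPA arrays that stand apart as open diamonds. Injured gel day 4 is the highest group except for M15562_g_at of RT1-Da, which is flat and reads 4.1 on 1 injured tPA array of day 4; X56596_at and M15562_at were added because the probe sets with the highest mean read flat.

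The comparison of injured gel with sham arteries on day 4 asks what injury does to these genes with no tPA present. Each of the 5 genes rose in at least 1 probe set. For RT1-Db1 (X53054_g_at), the 6 sham arrays read 129 to 380.1 (median 328) and the 3 injured gel arrays 4665, 4581 and 4198. For RT1-Ba (K02815_s_at) the sham arrays read 372 to 515 (median 426) and the injured gel arrays 3344, 3516.5 and 3258.5. In both genes every injured array lay several times above the highest sham array. For RT1-Bb (X56596_at) the sham arrays read 186 to 366 (median 292) and the injured gel arrays 3011, 2173 and 2725. For RT1-Da (M15562_at) the values were 759 to 1821 (median 1200.1) in sham and 4151, 4609 and 4858 in injured gel arteries. For Cd74 (X13044_g_at) they were 40.5 to 791 (median 571) and 4174, 4758 and 4329. None of these 5 probe sets overlapped between the groups, and the injured arrays were closely alike. X56596_at and M15562_at were shown because the brightest probe sets of RT1-Bb and RT1-Da read flat. Those, M36151cds_s_at and M15562_g_at, overlapped between the groups, so the lack of overlap in all 5 genes follows partly from that choice. Of all 14 tested, 10 did not overlap, against 23.8% of all probe sets.

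On the log2 scale the difference was 3.97 ± 0.67 for RT1-Db1 (SE; 15.7-fold, 95% interval 6.14 to 40.2; limma adjusted p = 0.000105). It was 2.98 ± 0.43 for RT1-Ba (7.88-fold, adjusted p = 2.34e-05), 3.21 ± 0.36 for RT1-Bb (9.23-fold, adjusted p = 6.76e-07), 1.92 ± 0.55 for RT1-Da (3.79-fold, adjusted p = 0.0122) and 3.47 ± 0.99 for Cd74 (11.1-fold, adjusted p = 0.0117). In all, 10 of the 14 probe sets passed, all higher, against 19.2% of all 5827 probe sets in this comparison. The median difference of the 5 genes, each taken by its brightest probe set, was 2.98, against 0.02 over all probe sets tested. The 10 calls were kept when any single array was left out (10 to 11 calls) and when the alike arrays were averaged.

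The probe sets of a gene did not all move. For RT1-Ba, X07551cds_s_at rose by 3.01 ± 0.47, but M22366_at read 134 to 558 in sham and 311 to 470.3 in injured gel arteries and did not pass. For RT1-Da, M15562_g_at read 2707 to 6161 in sham and 3261 to 3843 in injured gel arteries, a difference of -0.21 that did not pass, beside the rise of M15562_at. RT1-Bb had a passing probe set in X56596_at, whereas M36151cds_s_at (306 to 574.5 in sham, 527 to 659 in injured gel) and U65217_i_at (44 to 197 and 45.7 to 519) overlapped and did not pass. The 2 probe sets of RT1-Db1 and all 4 of Cd74 rose, X53054_at by 4.45 ± 0.81 and X14254cds_at, at 34.5 to 50.4 in sham and 584 to 866 in injured gel arteries, by 4.25 ± 0.7. X14254cds_at was dim in most other groups. Its mean log2 of 5.91, which the filter used, was raised by the injured arrays of day 4. Whether it would be among the tested probe sets without them was not tested. Because the gene is represented by its brightest probe set, the flat M36151cds_s_at and M15562_g_at stand for RT1-Bb and RT1-Da in the median of the 5 genes, and the mean of each gene's probe sets gives a median of 2.23 there.

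Leukocyte markers moved with the class II genes in this comparison. Of 8 tested macrophage markers 6 passed, all higher (median difference 2.32), and their summed intensity was 16285 to 19812 in injured gel against 2908 to 5624 in sham arteries. All 3 tested pan-leukocyte markers and 3 of 7 T cell markers were higher. Clec10a, the 1 gene tested of 6 listed for dendritic cells, and Cd37, the 1 tested of 7 listed for B cells, were higher too. A single gene does not show which cells carried it. Itgam, a macrophage integrin, was at the floor on 35 of 40 arrays and not tested. Of 5 smooth muscle markers, Myh11 (-2.2 ± 0.38) and Cnn1 (-1.59 ± 0.32), both contractile proteins, were lower. The ratio of the 3' to the 5' actin control probe sets, which reflects RNA length, was 7.38 to 8.09 on the injured gel arrays and 11.83 to 23.69 on the sham arrays. Their part in the class II result was not tested, and in pooled vessels more class II cells and more class II RNA per cell cannot be told apart.

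On day 1 the class II genes were not higher in the injured gel artery than in sham, and all 14 probe sets lay below 0 on the log2 difference scale. For RT1-Db1 (X53054_g_at) the sham arrays read 2115, 2208, 2322 and 2437 and the injured gel arrays 574, 123 and 625.3. For Cd74 (X13044_g_at) they read 1559, 1527, 3212 and 3091 in sham and 1052, 175 and 1016 in injured gel arteries. In both genes every injured array lay below every sham array, replicate 2 the farthest. In all, 9 of 14 probe sets did not overlap, against 22.4% of all. X53054_g_at was the 1 probe set that passed (-2.68 ± 0.72, 6.41-fold lower, adjusted p = 0.0309), against 3.12% of all probe sets. The difference was -1.95 ± 1.07 for Cd74 (X13044_g_at, adjusted p = 0.418), -1.59 ± 0.6 for RT1-Da (M15562_at, adjusted p = 0.159) and -1.2 ± 0.47 for RT1-Ba (K02815_s_at, adjusted p = 0.185), and these did not pass. The RT1-Db1 call was lost when any of 6 of the 7 arrays was left out, all but injured gel replicate 3 (differences -3.09 to -1.92), and when the alike arrays were averaged, which left 1 call among all probe sets.

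Leukocyte markers moved in different directions on day 1. The summed macrophage markers read 13244 to 14918 in injured gel and 7526 to 8523 in sham arteries, with Cd14 higher (1.65 ± 0.44, adjusted p = 0.0295) and a list median of 0.74. The neutrophil markers Defa5, a defensin (3.06 ± 0.77, adjusted p = 0.0193), and S100a8, a calcium-binding protein (3.93 ± 1.12, adjusted p = 0.0459), were higher, 2 of the 4 tested. None of 7 T cell markers passed (median -0.43), nor did Clec10a (-0.52 ± 0.54) or any of 3 pan-leukocyte markers (median 1.06; sums 550 to 2694 against 684 to 972 in sham). Skeletal muscle markers also stood out on these arrays, with summed intensities of 19503 to 31196 against 2435 to 3762 in sham. Their part in the class II values was not tested.

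The effect of injury therefore differed between the days, and this was tested directly as the day 4 minus day 1 difference of injured gel against sham. All 14 probe sets were above 0 and 10 passed, with at least 1 for each of the 5 genes, against 2.42% of all probe sets. The difference of differences was 6.66 ± 0.98 on the log2 scale for RT1-Db1 (X53054_g_at, limma adjusted p = 0.000196), 5.42 ± 1.46 for Cd74 (X13044_g_at, adjusted p = 0.0362), 4.17 ± 0.64 for RT1-Ba (K02815_s_at, adjusted p = 0.000276), 3.57 ± 0.53 for RT1-Bb (X56596_at, adjusted p = 0.000196) and 3.52 ± 0.82 for RT1-Da (M15562_at, adjusted p = 0.0109). With the alike arrays averaged 7 of the 10 were kept. M15562_at was kept in 15 of 16 fits with an array left out (lost without injured gel day 1 replicate 2), X13044_at of Cd74 in 11 and X13044_g_at in 10 (lost without that array, any injured gel array of day 4, or sham day 1 replicate 3, and for X13044_g_at also replicate 4). The sham arteries enter this difference, and their means were themselves lower on day 4 in each of the 10 probe sets that passed. That fall itself passed only for RT1-Db1 and M15562_at of RT1-Da. Within injured gel arteries alone, 7 probe sets of RT1-Ba, RT1-Bb, RT1-Db1 and Cd74 were higher on day 4 than on day 1, against 3.21% of all probe sets, for example X56596_at of RT1-Bb (267, 243 and 266 on day 1, difference 3.34 ± 0.41, adjusted p = 1.45e-05). The same probe set differed by -0.23 ± 0.33 between the sham days. Of the 7 calls, X14254cds_g_at of Cd74 was kept in 2 and X53054_at of RT1-Db1 in 3 of 6 fits with an array left out, both lost without injured gel day 1 replicate 2 and without day 4 replicates 1 or 2, the former also without day 4 replicate 3. The other 5 were kept in all 6. One of them, X14254cds_at of Cd74, is also among the 10 above. It may owe its place among the tested probe sets to the injured arrays of day 4. The summed macrophage markers were 16285 to 19812 on day 4 and 13244 to 14918 on day 1, and their part was not tested.

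**Figure D2:**
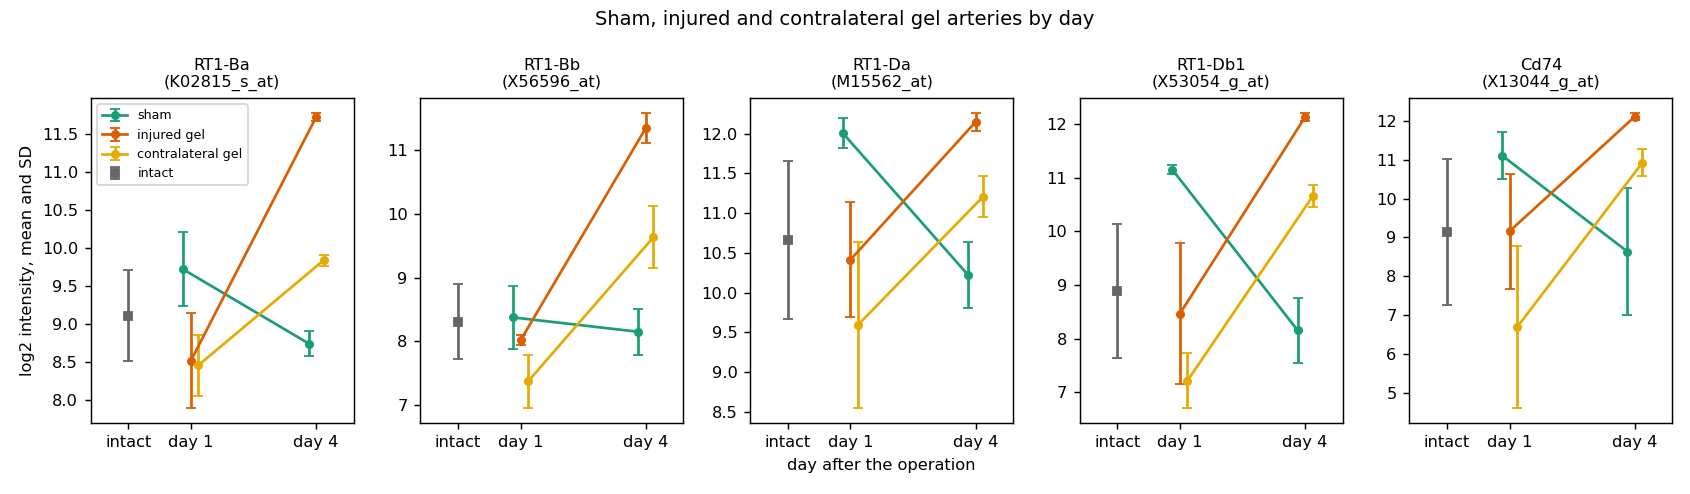
Mean log2 intensity with SD by day in sham (n = 4 and 6), injured gel (n = 3 each) and contralateral gel (n = 3 each) arteries, with intact arteries (n = 6) at the left of each panel. RT1-Db1 goes from 11.15 to 8.15 in sham and from 8.47 to 12.13 in injured gel arteries, so the lines cross; RT1-Bb stands at 8.37 and 8.15 in sham.

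In sham-operated arteries, which had an operation but no balloon, RT1-Db1 and M15562_at of RT1-Da were lower on day 4 than on day 1. For RT1-Db1 the 4 arrays of day 1 read 2115 to 2437 (X53054_g_at) and the 6 arrays of day 4 read 129 to 380.1. Its other probe set, X53054_at, read 494, 485, 525 and 471 on day 1 and 9.1 to 146 (median 119.9) on day 4. For RT1-Da (M15562_at) day 1 gave 3919, 4626.5, 4509.9 and 3488 and day 4 gave 759 to 1821. In these 3 probe sets no day 4 array reached any day 1 array, as in 7 of the 14, against 11.1% of all probe sets. They were the 3 of 14 that passed, all lower, against 5.01% of all probe sets: -2.99 ± 0.61 for X53054_g_at (7.96-fold, limma adjusted p = 0.00421), -2.45 ± 0.74 for X53054_at (5.45-fold, adjusted p = 0.0476) and -1.78 ± 0.51 for M15562_at (3.44-fold, adjusted p = 0.0366). The median of the 5 genes was -0.97, against 0.13 over all probe sets tested.

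Cd74 did not pass between the sham days although its day 1 arrays (X13044_g_at, 1527 to 3212) lay above all day 4 arrays (40.5 to 791), where replicate 5 was far below the other 5. RT1-Ba read 605 to 1183 on day 1 and 372 to 515 on day 4 (K02815_s_at), also without overlap and without passing. RT1-Bb (X56596_at, 246 to 482 and 186 to 366) overlapped, as did the brighter probe set of RT1-Da (M15562_g_at, 4125 to 7030 and 2707 to 6161). The calls were not stable: X53054_g_at was kept whichever array was left out, but X53054_at was kept in 1 of those 10 fits and M15562_at in 3. With sham day 1 replicates 1 and 2, and 3 and 4, averaged, no probe set passed (adjusted p = 0.117 for X53054_g_at, 0.296 for M15562_at and 0.308 for X53054_at). Quantile normalization kept X53054_g_at alone. Centring each array on its median moved the differences of this comparison by a median of -0.27, toward larger falls.

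Some leukocyte markers were also lower in sham arteries on day 4. Among 3 pan-leukocyte markers Ptprc, the leukocyte phosphatase CD45, fell by 3.43 ± 0.93 (adjusted p = 0.0314). Among 7 T cell markers Cd3g, a T cell receptor subunit, fell by 2.63 ± 0.58 (adjusted p = 0.0091). The summed T cell markers (873 to 1634 on day 1 and 644 to 953 on day 4) and neutrophil markers (133 to 289 and 102 to 302) overlapped, and Clec10a did not pass (-1.16). The summed pan-leukocyte markers were 684 to 972 on day 1 and 44 to 327 on day 4, and the summed macrophage markers 7526 to 8523 and 2908 to 5624, although 0 of 8 macrophage markers passed (median difference -1.06). Rfx5, a subunit of the RFX complex, fell by 0.99 ± 0.26 (adjusted p = 0.0249). The actin 3' to 5' ratio was 16.26 to 21.11 on day 1 and 11.83 to 23.69 on day 4. The part of these in the class II result was not tested.

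Intact arteries were widely spread. RT1-Db1 (X53054_g_at) read 144 to 1557 (median 400.1) and Cd74 (X13044_g_at) 92.7 to 1758 (median 1063). The sham arrays of day 1 lay above all intact arrays for RT1-Db1 (2115 to 2437), but not for Cd74. Of the 14 probe sets 2 did not overlap, against 5.42% of all. No class II probe set passed for sham day 1 against intact in the limma fit, against 0.944% of all probe sets, although 5 of 14 had an unadjusted p under 0.05. RT1-Db1 came nearest (2.26 ± 0.61, adjusted p = 0.0706). On day 4 none passed either (1 unadjusted), against 0.378% of all probe sets, and the median of the 5 genes was -0.36. Without sham day 4 replicate 5 this median was 0.12, and with other single arrays left out it was -0.57 to -0.17.

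The uninjured right artery of ballooned gel rats had the lowest group means of most class II probe sets on day 1. For RT1-Db1 (X53054_g_at) its 3 arrays read 109, 139 and 218, against 2115 to 2437 in sham arteries of that day. For Cd74 (X13044_g_at) they read 15.7, 116 and 412, against 1527 to 3212, and for RT1-Da (M15562_at) 455, 571 and 1756, against 3488 to 4626.5. In each of these probe sets all 3 arrays lay below all sham arrays, replicate 3 the nearest to them. In all, 11 of 14 probe sets did not overlap, against 13.6% of all. Of the 14 probe sets 6 passed, all lower and from RT1-Bb, RT1-Da, RT1-Db1 and Cd74, against 0.927% of all probe sets. The difference was -3.93 ± 0.72 for X53054_g_at (15.3-fold, limma adjusted p = 0.00303), -4.41 ± 1.07 for X13044_g_at (21.3-fold, adjusted p = 0.0332) and -2.42 ± 0.6 for M15562_at (5.34-fold, adjusted p = 0.0373). U65217_i_at of RT1-Bb was below the floor on all 3 contralateral arrays and read 132 to 595 in sham, so that it was at least 12.9-fold lower (adjusted p = 0.0395). The brighter probe sets of RT1-Bb did not pass (mean log2 8.25 against 8.51 in sham for M36151cds_s_at, 7.36 against 8.37 for X56596_at). M15562_g_at of RT1-Da overlapped (920 to 4782 against 4125 to 7030) and did not pass.

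These calls also leaned on few arrays. X53054_g_at was kept whichever of the 7 arrays was left out. X53054_at was kept in 4 of these fits, X13044_g_at in 3, X13044_at in 2 and M15562_at and U65217_i_at in 1 each, and leaving out sham day 1 replicate 3 or contralateral gel replicate 1 ended all 5 of these. The counts of calls ran from 1 to 4, and with the alike sham arrays averaged none of the 14 passed (adjusted p = 0.0621 for X53054_g_at). With the replicate number as a block 4 of the 6 passed, without M15562_at of RT1-Da (adjusted p = 0.0512) and U65217_i_at of RT1-Bb (0.063). Centring on the array median moved the differences of this comparison by a median of -0.29, toward larger falls. The summed pan-leukocyte markers read 82 to 665 in contralateral gel arteries and 684 to 972 in sham, and the actin 3' to 5' ratio 10.25 to 15.25 and 16.26 to 21.11. The macrophage sums (3807 to 11187 and 7526 to 8523) overlapped. Their part was not tested.

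By day 4 the contralateral gel artery lay above sham for part of the set. RT1-Db1 (X53054_g_at) read 1894, 1514 and 1462, against 129 to 380.1 in sham, and RT1-Bb (X56596_at) read 581.5, 1139 and 761, against 186 to 366. Both passed without overlap (2.5 ± 0.67, adjusted p = 0.0148, and 1.49 ± 0.36, adjusted p = 0.00712), the 2 of 14 that did, against 8.82% of all probe sets, while 8 did not overlap, against 16% of all. With 14 probe sets, 2 calls lie near the 8.82% of all. RT1-Db1 lost its call without contralateral gel replicate 1 or 3 and RT1-Bb without replicate 2. Cd74 read 2369, 2073 and 1488 (X13044_g_at), above every sham array, without passing. Of the 14 differences 10 were above 0 and 4 below. Those below included M36151cds_s_at and U65217_i_at of RT1-Bb (mean log2 8.33 and 6.11, against 8.68 and 6.19 in sham) and M15562_g_at of RT1-Da (11.98 against 12.02). The summed macrophage markers were 8806 to 14384 in the contralateral gel artery and 2908 to 5624 in sham, with Ctss (1.41 ± 0.33) and Lgals3 (1.86 ± 0.42) higher among 8, and the pan-leukocyte sums 578 to 1298 and 44 to 327, with 0 of 3 passing. The adipocyte markers Cfd (2.25 ± 0.37) and Fabp4 (3.56 ± 1.14) were also higher, and Cnn1 was lower (-1.21 ± 0.32). Their part in the class II result was not tested. From day 1 to day 4 within the contralateral gel artery 5 probe sets of RT1-Bb, RT1-Db1 and Cd74 rose, against 3.57% of all probe sets, X53054_g_at by 3.44 ± 0.77 (adjusted p = 0.00567) and X13044_g_at by 4.23 ± 1.14 (adjusted p = 0.0269). X53054_g_at and X56596_at were kept whichever array was left out. X13044_g_at of Cd74 was kept only without contralateral gel day 1 replicate 3 (3.15 to 5.22 over the 6 fits), X13044_at in 2 fits and X53054_at of RT1-Db1 in 4.

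The injured artery exceeded the contralateral one of gel rats on day 4 in 4 probe sets, of RT1-Ba, RT1-Bb and Cd74. RT1-Ba (K02815_s_at) read 3344, 3516.5 and 3258.5 in the injured and 895, 880.1 and 968 in the contralateral artery, a difference of 1.88 ± 0.5 (adjusted p = 0.0245). RT1-Bb (X56596_at) differed by 1.72 ± 0.41 (adjusted p = 0.0121), and X14254cds_at of Cd74, at 36.9, 119.7 and 40.5 in the contralateral artery, by 3.7 ± 0.81 (adjusted p = 0.00633). With X07551cds_s_at of RT1-Ba (2.24 ± 0.55) these were the 4 of 14 that passed, against 5.1% of all probe sets, and 12 of 14 did not overlap, against 30.4%. Differences of like size did not pass in RT1-Db1 (X53054_at 2.02 ± 0.93, X53054_g_at 1.47 ± 0.77) and in X14254cds_g_at of Cd74 (2.15 ± 1.09), and no difference between the genes was tested. Cd14 (1.56 ± 0.47) was higher in the injured artery, the 1 of 8 macrophage markers that passed. Cd53 (2.9 ± 0.86), among 3 pan-leukocyte markers, and Cd8a (3.37 ± 0.93), among 7 T cell markers, were higher too. Clec10a (1.27) and Cd37 (1.82) did not pass. The actin 3' to 5' ratio was 7.38 to 8.09 in the injured and 11.68 to 13.61 in the contralateral artery. The part of these in the class II result was not tested. Leaving out an array left 1 to 3 of the calls, X14254cds_at in every case, X07551cds_s_at and X56596_at in 3 of 6 and K02815_s_at in none (1.85 to 1.93), whereas the fit of only these 6 arrays called 10. What share of all probe sets that fit called is not given here. X14254cds_at may owe its place among the tested probe sets to its high values in injured arteries of day 4. On day 1 no class II probe set passed between these arteries (3 unadjusted), against 0.549% of all probe sets.

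**Figure D3:**
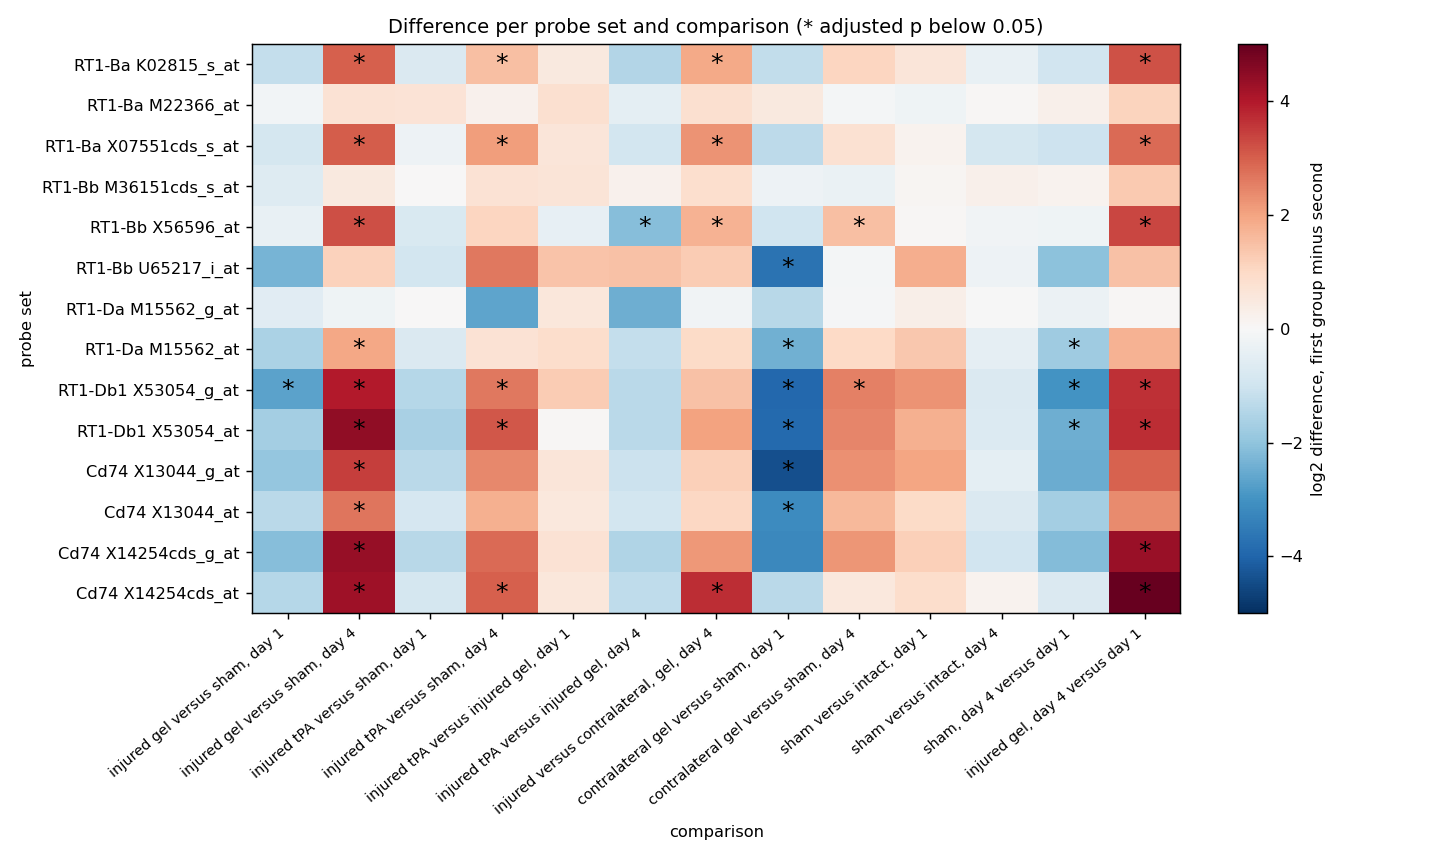
Log2 difference (colour, first group minus second, scale from -5 to 5) of the 14 tested probe sets in 13 comparisons, with an asterisk where the adjusted p is below 0.05. Injured gel against sham is red on day 4 with 10 asterisks and blue on day 1 with 1, and M22366_at, M36151cds_s_at and M15562_g_at have none.

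With tPA in the gel, class II genes were also higher in the injured artery than in sham on day 4. RT1-Db1 (X53054_g_at) read 567, 3578 and 2656 in the injured tPA artery and RT1-Ba (K02815_s_at) 323, 2409.5 and 2334, replicate 1 being the low one each time and the 1 of these arrays that stood apart. Replicates 2 and 3 lay above all sham arrays and below all injured gel arrays in both probe sets. Of 14 probe sets 5 passed, all higher and from RT1-Ba, RT1-Db1 and Cd74, against 5.87% of all probe sets. The difference was 2.62 ± 0.67 for X53054_g_at (6.16-fold, adjusted p = 0.0207) and 1.51 ± 0.43 for K02815_s_at (2.85-fold, adjusted p = 0.0347). The Cd74 call, X14254cds_at, may owe its place among the tested probe sets to the injured arrays of day 4. Without the 4 arrays that stand apart 12 passed, 11 higher and 1 lower, with 3.44 ± 0.65 for X53054_g_at of RT1-Db1 (adjusted p = 0.000413) and 2.47 ± 0.33 for K02815_s_at of RT1-Ba (adjusted p = 4.82e-06). The lower one was M15562_g_at of RT1-Da, which read 3722, 3332 and 4.1, while M15562_at of the same gene read 1239, 2861 and 2231 on the same arrays. Replicate 1 was set apart by its small shift toward injury, so more calls against sham without it follow partly from that choice. The share of all probe sets called without the 4 arrays is not given here. Of the markers, 4 of 8 for macrophages and 2 of 3 for all leukocytes were higher in this comparison, as were Clec10a and Cd37, while Acta2 (-0.68 ± 0.21) and Cnn1 (-1.27 ± 0.32) were lower. The macrophage sums were 6027 to 13907 in injured tPA and 2908 to 5624 in sham arteries, and their part was not tested. Leaving out injured tPA replicate 2 or 3 ended all 5 calls, leaving out sham replicate 2 or 3 ended that of K02815_s_at, and the fit of only these 9 arrays made 0.

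Between tPA and plain gel the class II genes differed in 1 probe set. On day 4 X56596_at of RT1-Bb read 457.5, 992 and 483 in injured tPA and 3011, 2173 and 2725 in injured gel arteries. All 3 tPA arrays lay below all gel arrays, including the 2 that did not stand apart. Of the 14 probe sets 6 did not overlap, against 13.4% of all. The difference was -2.12 ± 0.41 (4.33-fold, 95% interval 2.42 to 7.76; limma adjusted p = 0.0213), 1 of 14 probe sets against 0.12% of all. Without the 4 arrays it was -1.92 ± 0.43 for X56596_at of RT1-Bb (adjusted p = 0.0365). The call was kept only without tPA replicate 2 among the 6 fits with an array left out (-2.47 to -1.92). It was not kept in the fit of only these 6 arrays. The gene's other tested probe sets lay above 0, the 2 of 14 that did, and overlapped between the groups. M36151cds_s_at, the brightest, had mean log2 9.39 in injured tPA and 9.16 in injured gel arteries, and U65217_i_at 8.83 and 7.35. The macrophage sums were 6027 to 13907 in injured tPA and 16285 to 19812 in injured gel arteries, and the actin 3' to 5' ratios 11.02 to 16.02 and 7.38 to 8.09; their part was not tested.

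The other class II genes did not pass between injured tPA and injured gel on day 4, and their intervals were wide. The difference was -1.47 for RT1-Ba (K02815_s_at, 95% interval -2.49 to -0.44, adjusted p = 0.317), -1.35 for RT1-Db1 (X53054_g_at, -2.92 to 0.21) and -1.08 for Cd74 (X13044_g_at, -3.41 to 1.24). Without the arrays that stand apart they were -0.51 for RT1-Ba, -0.54 for RT1-Db1 and -0.23 for Cd74. The median of the 5 genes went from -1.35 to -0.51. On day 1 none of the 14 passed between injured tPA and injured gel in the limma fit (1 unadjusted), against 0.12% of all probe sets, and 13 of 14 differences were above 0. The median of the 5 genes was 0.62, or 0.56 without the arrays that stand apart, but 0.19 without injured gel replicate 2 and 1.03 without injured gel replicate 3. None passed between injured tPA and sham on day 1 (0 unadjusted), against 4.43%. Without the arrays that stand apart none passed in these day 1 comparisons either. Within the injured tPA artery 2 probe sets, X56596_at of RT1-Bb (1.62 ± 0.41, adjusted p = 0.0401) and X14254cds_at of Cd74 (3.16 ± 0.81, adjusted p = 0.0401), were higher on day 4 than on day 1, against 1.15% of all. Without the arrays that stand apart both were kept and 4 more passed, among them K02815_s_at of RT1-Ba (2.14 ± 0.4, adjusted p = 0.00121) and, lower, M15562_g_at of RT1-Da (-3.85 ± 1.11, adjusted p = 0.0397). For M15562_g_at the remaining day 4 arrays read 3332 and 4.1. What share of all probe sets that fit called is not given here. X56596_at and X14254cds_at were each kept in 2 of 6 fits with an array left out, and neither under median scaling or with the alike arrays averaged. X14254cds_at may owe its place among the tested probe sets to the injured arrays of day 4, the side read as higher.

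The contralateral artery of tPA rats gave no class II call in the limma fit. RT1-Db1 (X53054_g_at) read 1078, 3505 and 483 on day 1 and 1630, 167 and 855 on day 4, with the arrays that stand apart the highest of each group. None passed against sham on day 1 (0 unadjusted, 0.172% of all probe sets called) or day 4 (0 unadjusted, 0.91%), or between the days (1 unadjusted, 0% of all). Against the contralateral gel artery on day 1, 13 of 14 differences were above 0 and 11 had an unadjusted p under 0.05, RT1-Db1 at 3.04 ± 0.77 (X53054_g_at, adjusted p = 0.149), but 0 passed, as did 0% of all probe sets. On day 4 none passed (1 unadjusted, 1.63% of all). Without the arrays that stand apart X56596_at of RT1-Bb was lower than in the contralateral gel artery on day 4 (-1.92 ± 0.43, adjusted p = 0.0106), and no other class II probe set passed in these comparisons of the contralateral tPA artery. Between the injured and the contralateral artery of tPA rats none passed on day 1 (1 unadjusted, 0.0172% of all) or day 4 (6 unadjusted, 0.0343%), where without the arrays that stand apart none passed on day 1 and 7 on day 4. Those arrays were picked by a shift that contrasts these arteries, so the 7 calls follow partly from that choice. The share of all probe sets called in that fit is not given here. The tests of whether the tPA difference changed between days (6 unadjusted, 0.0858% of all), or between the arteries on day 1 (4 unadjusted, 0% of all) and day 4 (0 unadjusted, 0.0515%), called no class II probe set, with or without the arrays that stand apart.

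Other genes of class II presentation were described by a list of loading and transactivation genes, of which 13 were tested. In injured gel against sham on day 4, 3 were higher and 1 lower, with a median of 0.42 against 0.02 over all probe sets. RT1-DMb, a chain of the peptide exchange factor RT1-DM, rose by 2.62 ± 0.53 (adjusted p = 0.000562), from 285 to 526.4 in sham to 2248 to 2983 in injured gel arteries. Ctss, cathepsin S, which cuts the invariant chain and also stands among the macrophage markers, rose by 1.89 ± 0.33, and Nfyb, a subunit of NF-Y, by 1.34 ± 0.38. Cst3, the cathepsin inhibitor cystatin C, fell by 0.98 ± 0.33. RT1-DMa, the partner of RT1-DMb, was at 0.57 ± 0.29 and Rfx5 at 0.54 ± 0.28, and neither passed. Ciita was not among the genes measured by an annotated probe set.

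Of 15 tested genes of class I and its loading, Psmb8 (1.35 ± 0.3) and Psmb9 (1.41 ± 0.37), subunits of the immunoproteasome, and RT1-A3 (1.96 ± 0.52), a class I heavy chain, were higher in injured gel arteries on day 4. B2m, the class I light chain, was lower (-0.79 ± 0.26). The median of this list was 0.33. Of 5 interferon gamma pathway genes, Jak2, a receptor-associated kinase (1.17 ± 0.26), and Gbp2, an induced GTPase (1.85 ± 0.52), were higher, while Ifng itself read 42.2 to 124.8 in sham and 89.8 to 94.3 in injured gel arteries. The median of this list was 1.17. None of 4 tested costimulation genes passed (median -0.31). In the contralateral gel artery against sham on day 1, where class II genes were lowest, no gene of these 4 lists passed.

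The genes whose pattern was most like the class II genes were found by Pearson correlation of each of 3541 other genes with the mean of the 5 genes over the 40 arrays. They were RT1-DMb (r = 0.84), the secreted receptor partner Ly86 (0.82), the protease Ctse (0.76), the lectin Clec10a (0.76), the phosphatase Ptpn6 (0.74), the sialoprotein Spn (0.72), the kinase Prkcb (0.72) and the endotoxin receptor Tlr4 (0.72). Over the 11 group means the same genes gave 0.73 to 0.88. The arrays share group effects, scaling and pools, and this is a description. Within the set, RT1-Db1 (X53054_g_at) and Cd74 (X13044_g_at) gave r = 0.9 and RT1-Ba (K02815_s_at) and Cd74 (X14254cds_at) 0.9, while M15562_g_at of RT1-Da gave -0.3 to 0.29 with the rest.

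The mean of the macrophage list and the mean of the 5 genes gave r = 0.71 over the 40 arrays and 0.77 after group means were removed. Injured gel arteries of day 1 had macrophage means of 0.09 to 0.74 with class II means of -1.66 to 0.02 (log2, centred over the 40 arrays). Sham arteries of day 1 had macrophage means of -0.25 to 0.13, which overlapped those, with class II means of 0.52 to 0.95. Injured gel arteries of day 4 were high in both, at 0.91 to 1.53 and 1.48 to 1.61. The part of macrophages in the class II values was not tested.

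**Figure D4:**
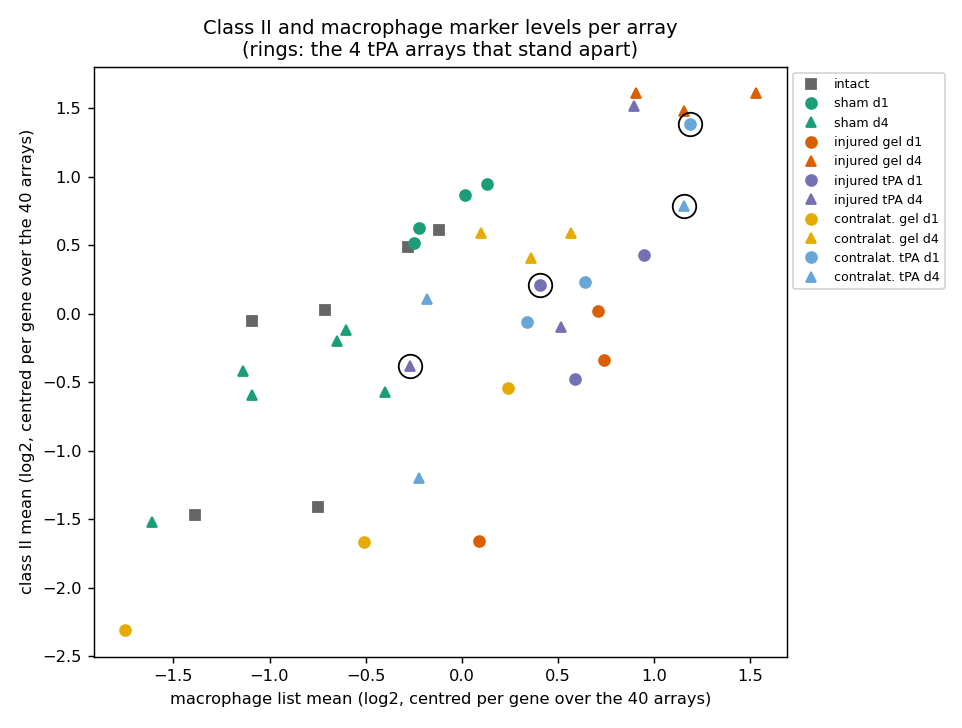
Mean of the 5 class II genes (log2, centred per gene) against the mean of 8 macrophage markers (log2, centred) on the 40 arrays, coloured by group, with circles for day 1, triangles for day 4, squares for intact and rings around the 4 tPA arrays that stand apart. Injured gel day 4 lies at the upper right (class II 1.48 to 1.61). Injured gel day 1 lies below sham day 1 in class II (-1.66 to 0.02 against 0.52 to 0.95), with overlapping macrophage means (0.09 to 0.74 against -0.25 to 0.13). Injured tPA day 4 replicate 3 has a class II mean of -0.1, which includes the reading of 4.1 of M15562_g_at, while the centred median of its 14 probe sets is 1.81.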

How the data were processed

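The intensity values deposited by the authors are linear, with 1 value for each probe set on each array. How probes were summarised is not given in the sources used here. Their mean without the extremes was 499.2 to 500.0 on every array, so each value is relative to the rest of its array. Values below 23.3, the 20th percentile, were raised to it before log2, which understates changes of dim genes. The 2913 dimmest probe sets were left out, 5827 were tested, and each gene is represented by its brightest probe set on average, with the others beside it. The model, limma 3.58.1 under R 4.3.3 with lmFit and eBayes, held 11 group means over 40 arrays, with Benjamini-Hochberg adjustment at 0.05 per comparison, and "passed" or "called" means this. The comparisons share groups, sham arteries above all, and are not independent. The number of arrays limits the precision. Probe set names carry the platform annotation supplied: 7006 had 1 symbol, 308 several and 1426 none. Promoters matched for all 5 genes. The members and gene lists were chosen with earlier results of these data known. All probe sets of the 5 genes were eligible to be named, other genes where they passed or define a list, and the 8 most alike in pattern. X56596_at and M15562_at were shown because the representing probe sets read flat. Same-numbered arrays deviated together (correlations 0.12 to 0.28) only in contralateral gel against sham on day 1; the labels state no pairing. Alternatives covered normalization, filter, floor, arrays entered, weights, moderation, a replicate block and each array left out; averaging alike arrays was chosen after seeing the data.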

Additional observations from a re-analysis of the deposited data

Results flagged for a closer look

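Sham day 4 replicate 5 lay far from the other 5 arrays of its group in 5 of the 42 combinations of probe set and group examined. All 5 are probe sets of RT1-Db1 and Cd74 on this same array, so they are not independent and their number was not set against chance. For RT1-Db1 it read 129.2 (X53054_g_at, nearest 271.0) and 9.1 (X53054_at, nearest 83.3). For Cd74 it read 40.5 (X13044_g_at, nearest 544.6) and 104.1 (X13044_at, nearest 378.3) at the low end, but 50.4 (X14254cds_at, nearest 39.0) at the high end. The summed macrophage markers of its group ran from 2908 to 5624.

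The injury effect under gel differed between day 4 and day 1 by a test of the difference itself in 10 probe sets (log2, day 4 minus day 1). It was 4.17 and 3.88 for RT1-Ba (K02815_s_at and X07551cds_s_at), 3.57 for RT1-Bb (X56596_at) and 3.52 for RT1-Da (M15562_at). It was 6.66 and 6.13 for RT1-Db1 (X53054_g_at and X53054_at), and 5.42, 4.03, 6.47 and 5.69 for Cd74 (X13044_g_at, X13044_at, X14254cds_g_at and X14254cds_at). In each of these 10 probe sets the sham mean was lower on day 4 than on day 1, which adds to the size. That fall passed only for RT1-Db1 and M15562_at of RT1-Da. For X13044_g_at of Cd74 the sham mean log2 went from 11.11 to 8.64 without passing. X14254cds_at may owe its place among the tested probe sets to the injured arrays of day 4.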

How the results depend on the processing

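No class II result that passed changed direction under any alternative run. Averaging all tested probe sets of each gene put the median of the 5 genes at 2.23 for injured gel against sham on day 4, 1.64 for injured against contralateral gel on day 4, 0.59 for contralateral gel against sham on day 4 and 2.96 for injured gel against sham compared between days. Without the 4 tPA arrays that stand apart it was 2.47 for injured tPA against sham and -0.51 against injured gel on day 4, 2.31 for injured against contralateral tPA on day 4, -1.06 for tPA against gel compared between days, and 0.43, in place of -0.37, for tPA against gel compared between arteries on day 4. Array weights gave -0.62 for injured tPA against gel on day 4, 2.2 for injured gel between days and -0.91 for tPA against gel compared between days, and quantile normalization gave 1.38 for injured against contralateral gel on day 4. With each array left out in turn the median ran from 1.02 to 2.47 for injured tPA against sham on day 4, from -1.87 to -0.51 for injured tPA against gel on day 4, from 0.99 to 1.33 for injured against contralateral gel on day 4, from 2.09 to 3.36 for injured gel between days, from 0.58 to 1.85 for injured tPA between days and from -2.43 to -0.98 for tPA against gel compared between days. The causes of these shifts were not tested.

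The replicate block kept 52 of the 56 calls; beyond the comparison of contralateral gel with sham on day 1, it lost 2 of the 3 calls between the sham days, where same-numbered arrays did not deviate together (correlations -0.15 to 0.06). Averaging the alike arrays kept 40 of 56 and fitting only the groups compared 42, which leaves fewer arrays. Depth has no counterpart on arrays. Values of X14254cds_at and U65217_i_at lie near the floor in several groups, so that their changes are understated.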
